A study of Mus musculus with 3 samples.

Results

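The 9 genes Hoxb1 to Hoxb9 of the mouse Hoxb cluster were followed in 3 sorted populations of bone marrow cells. They were taken by gene name from a table of normalized counts with 23420 rows, and each of the 9 had a row of its own. All cells came from bone marrow of the C57BL/6 strain, with a GFP reporter for Map17, the product of Pdzk1ip1, used in the sort, and no treatment is recorded. They were sorted as LSK cells, which lack lineage markers and carry Sca-1 and c-Kit, the class of marrow cells with the stem cells and early progenitors. Hematopoietic stem cells (HSCs) were CD48-negative and CD150-positive and were split into a Map17-GFP+ and a Map17-GFP- fraction. Multipotent progenitors (MPPs) were CD48-positive, CD150-negative and Map17-GFP-. Each population had 1 library; the sources used here do not give the age, sex or number of the mice or how the reporter was built. No spread between replicates can be had, so no test was made, and every difference given is a difference between 3 libraries.

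Hox genes encode homeodomain transcription factors. They lie in clusters in the order in which they are used along the body axis, and genes of the same number in different clusters are paralogues that descend from 1 ancestral gene. In blood formation, genes of the Hoxa and Hoxb clusters are known to be active in stem cells and early progenitors and to be turned off as cells mature. Hoxb4 is known for expanding HSCs when overexpressed, and a Hoxb5 reporter has been used to mark long-term HSCs.

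The cluster lies on chromosome 11 of GRCm38 (also called mm10), and the 9 genes span 96.8 kb from the start of Hoxb9 at 96271457 to the end of Hoxb1 at 96368256, all on the plus strand. Every member has 2 exons in its principal GENCODE M21 transcript. Their kinship is plainest in the homeobox, the stretch that codes for the DNA-binding domain. The 33 bases that code for the core of its recognition helix are shown because they let the members be compared letter by letter; they were read from the GENCODE M21 transcripts, and capitals mark bases unlike Hoxb5.
Hoxb1: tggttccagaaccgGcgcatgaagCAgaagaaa
Hoxb2: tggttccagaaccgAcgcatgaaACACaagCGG
Hoxb3: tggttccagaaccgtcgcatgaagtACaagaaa
Hoxb4: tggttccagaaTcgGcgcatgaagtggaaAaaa
Hoxb5: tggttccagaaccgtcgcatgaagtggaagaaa
Hoxb6: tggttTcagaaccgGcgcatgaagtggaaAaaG
Hoxb7: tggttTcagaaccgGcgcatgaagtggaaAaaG
Hoxb8: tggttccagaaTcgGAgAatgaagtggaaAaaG
Hoxb9: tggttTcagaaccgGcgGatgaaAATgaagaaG
Hoxb6 and Hoxb7 had the same 33 bases, and Hoxb2 was farthest from Hoxb5, with 8 bases unlike it. Principal transcripts were also aligned to other Hox genes, and only whole alignments without a mismatch were kept. The longest of these ran from 18 bases for Hoxb7 to 28 for Hoxb4, except in Hoxb9, with 50 bases shared with Hoxc9. Exact runs inside longer alignments that hold mismatches were not counted, so these lengths understate what the genes share. The 33 bases of Hoxb6 and Hoxb7 are such a run. With all genes compared, the longest alignment without a mismatch was 56 bases, between Hoxb4 and a predicted gene. The sources used here do not give how reads that match several genes were treated.

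Reads of some members cannot be told from those of genes on the other strand, because the library chemistry did not mark strand. The antisense gene Hoxb3os (96343072 to 96354691) covers 58.5% of the exon bases of the principal Hoxb2 transcript and 50.9% of those of Hoxb3, and Hoxb5os (96291024 to 96306910) covers 5.28% of those of Hoxb5. No antisense exon overlaps the principal transcripts of the other 6 members. Neither antisense gene had a row under its symbol or a synonym, so their levels are not analysed here and the Hoxb2 and Hoxb3 levels may hold reads of Hoxb3os.

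All 9 genes had their lowest level in MPPs and their highest in GFP+ HSCs. The share of all genes with this order was not counted. Several steps between the HSC fractions were small, such as that of Hoxb3, from 251 to 265, or Hoxb8, from 17 to 19. As a sum over the 9 members, the normalized count came to 236 (MPPs), 1642 (GFP- HSCs) and 2098 (GFP+ HSCs). Relative to MPPs the sum was 6.96-fold (GFP- HSCs) and 8.89-fold (GFP+ HSCs) higher, and from GFP- to GFP+ HSCs it differed by 1.28-fold. Counts given as 3 values keep the order MPPs, GFP- HSCs, GFP+ HSCs. In a bulk library, fewer cells that express a gene and less RNA per cell cannot be told apart.

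**Figure D1:**
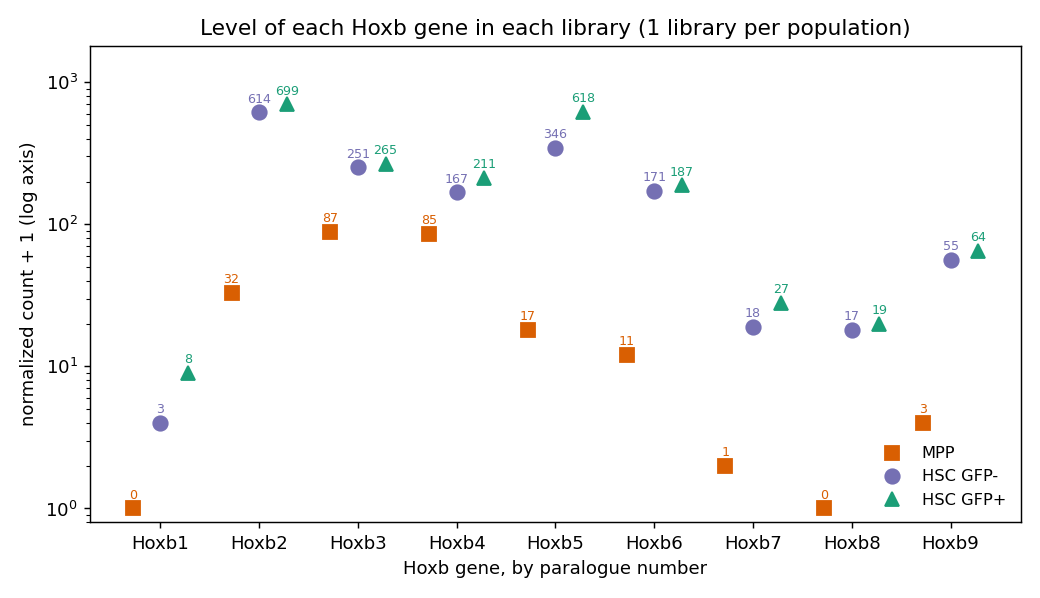
Normalized count plus 1 (log axis) of each Hoxb gene in the MPP, GFP- HSC and GFP+ HSC libraries, 1 point per library, with the normalized count printed beside each point. For every gene the MPP point is lowest, and the 3 libraries are closest together for Hoxb4 (85, 167 and 211) and Hoxb3 (87, 251 and 265).

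The first genes of the cluster by number, Hoxb1 and Hoxb2, are best known for patterning the hindbrain. Hoxb1 was near the bottom of the scale, listed at 0 (MPPs), 3 (GFP- HSCs) and 8 (GFP+ HSCs). Hoxb2 had counts of 32 (MPPs), 614 (GFP- HSCs) and 699 (GFP+ HSCs). The MPP library was low, and both HSC libraries were high and within 1.14-fold of each other. Over the MPP level these are 19.2-fold (GFP- HSCs) and 21.8-fold (GFP+ HSCs).

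Hoxb3 and Hoxb4 went least far between the gates among the members with an MPP level above 3. Hoxb3 had counts of 87 (MPPs), 251 (GFP- HSCs) and 265 (GFP+ HSCs), which is 2.88-fold and 3.05-fold above MPPs. Hoxb4, the gene known from HSC expansion, had counts of 85 (MPPs), 167 (GFP- HSCs) and 211 (GFP+ HSCs), which is 1.97-fold and 2.48-fold above MPPs. The MPP library was again the low one, but it kept a clear level of both genes.

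Hoxb5, the long-term HSC marker, showed the largest step between the HSC fractions among the 5 members whose mean level reached 50. It had counts of 17 (MPPs), 346 (GFP- HSCs) and 618 (GFP+ HSCs). The 3 libraries were spread out, and Hoxb5 was the member with the highest fold between GFP+ HSCs and MPPs, at 36.4-fold, among those with an MPP level above 3. GFP- HSCs were 20.4-fold above MPPs. Hoxb6, its neighbour on the Hoxb9 side, had counts of 11 (MPPs), 171 (GFP- HSCs) and 187 (GFP+ HSCs). Both HSC libraries lay 15.6-fold and 17.0-fold above MPPs and close to each other.

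The members at the posterior end had small levels in all libraries. Hoxb7 had counts of 1 (MPPs), 18 (GFP- HSCs) and 27 (GFP+ HSCs). Hoxb8, whose forced expression is used to keep myeloid progenitors growing in culture, had a listed 0 (MPPs) and counts of 17 and 19 (GFP- and GFP+ HSCs). Hoxb9, which takes part in patterning the ribs, had counts of 3 (MPPs), 55 (GFP- HSCs) and 64 (GFP+ HSCs). For these 3 genes both HSC libraries were low but above the MPP library, which was at or near 0; no fold is given against such levels. Hoxb13, the cluster's outlying gene known from the prostate, was listed at 0 in all 3 libraries. The microRNA gene Mir10a, which lies between Hoxb4 and Hoxb5, was also listed at 0, and Mir196a-1 had a count of 1 in the GFP- HSC library and 0 in the others. Capture of microRNAs in these libraries was not tested, so these values do not show that the microRNAs were absent.

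Levels of different genes were compared per kb of principal transcript. In GFP- HSCs Hoxb2 led at 377 normalized counts per kb, followed by Hoxb5 at 183, Hoxb3 at 133, Hoxb6 at 129 and Hoxb4 at 65.1. In GFP+ HSCs Hoxb2 stood at 429, Hoxb5 at 326, Hoxb6 at 142, Hoxb3 at 140 and Hoxb4 at 82.2 per kb. In MPPs the order differed: Hoxb3 led at 46.0, ahead of Hoxb4 at 33.1, Hoxb2 at 19.7, Hoxb5 at 8.97 and Hoxb6 at 8.33 per kb. The top places moved with the length used: with merged exon lengths Hoxb4 led in MPPs, at 33.1 against 20.5 for Hoxb3, and Hoxb5 led in GFP+ HSCs, at 222 against 200.4 for Hoxb2. Hoxb9, Hoxb7, Hoxb8 and Hoxb1 took the last 4 places in every library, none above 24.9 per kb. Without replicates, neighbours in these orders, such as Hoxb3 and Hoxb6 in the HSC libraries, cannot be ranked beyond their error.

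**Figure D2:**
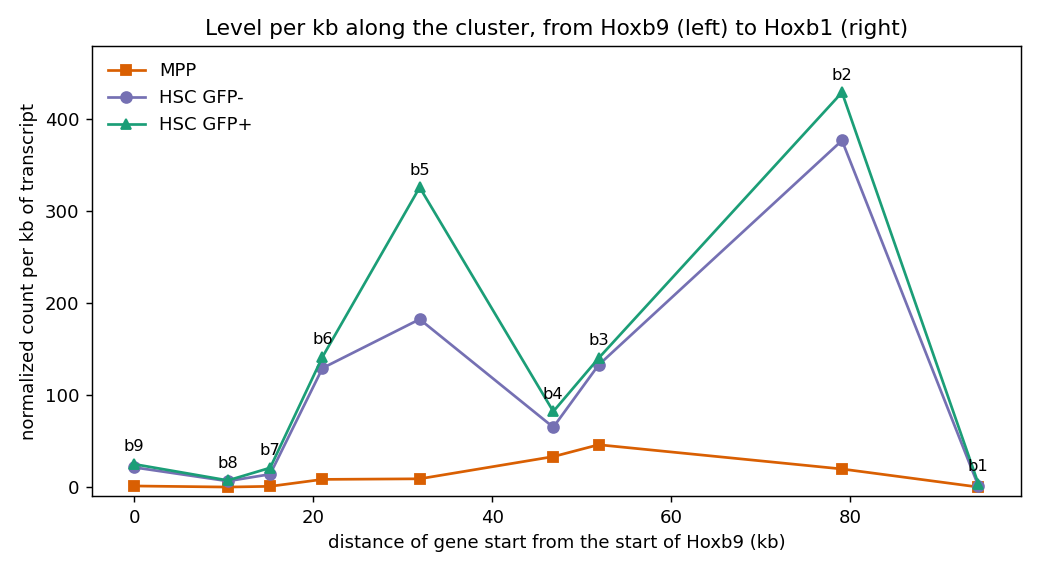
Normalized count per kb of principal transcript (vertical axis) against the distance of each gene's annotated start from the start of Hoxb9 in kb (horizontal axis), for the MPP, GFP- HSC and GFP+ HSC libraries; lines only join neighbouring genes. In both HSC libraries Hoxb5 and Hoxb2 form peaks with the lower Hoxb4 and Hoxb3 between them, and in MPPs Hoxb3 is the highest gene at 46.0 per kb.

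The make-up of the Hoxb transcripts differed between the gates. Hoxb3 and Hoxb4 together made up 67.1% (MPPs), 21.3% (GFP- HSCs) and 18.9% (GFP+ HSCs) of the summed level per kb. Hoxb2 and Hoxb5 together made up 24.2%, 60.2% and 64.2% in the same order. The share of Hoxb6 to Hoxb9 was 8.70% (MPPs), 18.4% (GFP- HSCs) and 16.5% (GFP+ HSCs). The Hoxb3 and Hoxb4 pair lies between Hoxb5 and Hoxb2 in the cluster. Hoxb3 and Hoxb2 are the genes that Hoxb3os overlaps. Hoxb4 and Hoxb5 have 0% and 5.28% of their exon bases under antisense exons. Their levels per kb were 33.1 and 8.97 in MPPs, 65.1 and 183 in GFP- HSCs, and 82.2 and 326 in GFP+ HSCs. The part of antisense reads in the make-up was not tested. With merged exon lengths in place of the principal transcripts, Hoxb3 and Hoxb4 held 70.3%, 22.5% and 20.2%.

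**Figure D3:**
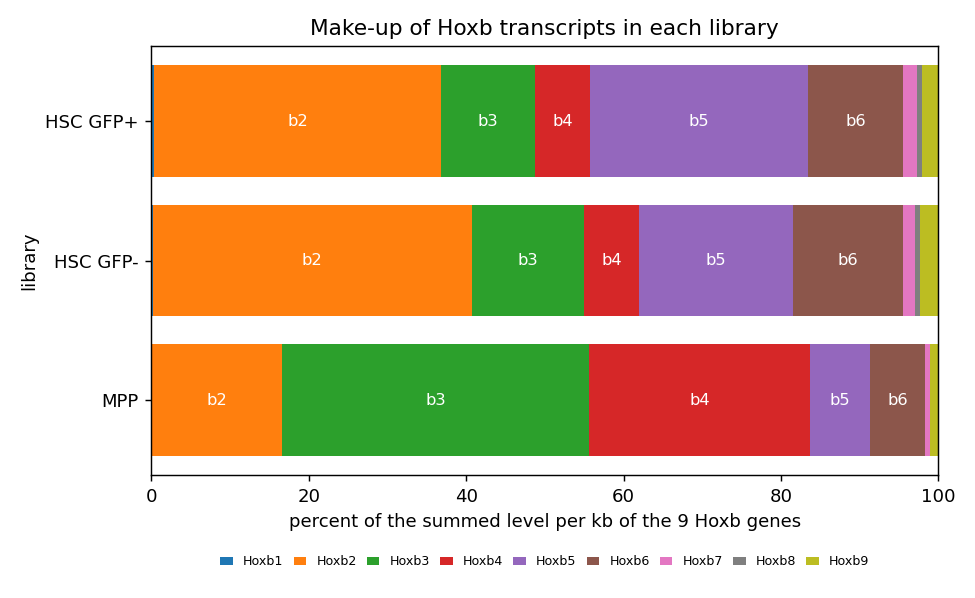
Percent of the summed level per kb of the 9 Hoxb genes (horizontal axis) taken by each gene in the MPP, GFP- HSC and GFP+ HSC libraries; genes under 5% carry no letter. Hoxb3 and Hoxb4 fill 67.1% of the MPP bar but 21.3% and 18.9% of the HSC bars.

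Stem cells were then set against progenitors across all genes. The measure was the log2 ratio after 5 was added to each level, which makes the differences of low genes look smaller, and a gene counted as apart at 2-fold. Between GFP- HSCs and MPPs, 7 of all 9 members were higher by 2-fold or more in the HSCs and 0 lower; the other 2 were Hoxb4, at a log2 ratio of 0.93, and Hoxb1, at 0.68. Of the 11951 genes whose mean level reached 50, 11.6% were as far apart upwards and 5.53% downwards; of the 3303 with a mean level of 50 to 500, 25.4% were upwards. Between GFP+ HSCs and MPPs, 9 of 9 members were higher by 2-fold or more; the share of all genes was 13.7% upwards and 8.61% downwards, and 28.9% upwards of those at 50 to 500. Over all 23393 rows with a gene symbol, with no filter, the shares were 9.93% and 11.3%. The calls of the low members depended on the number added. With 20 added in place of 5, Hoxb7 (0.86) and Hoxb8 (0.89) fell short of 2-fold for GFP- HSCs against MPPs, which left 5 of 9 members, beside 6.64% of all rows. For GFP+ HSCs against MPPs, Hoxb1 (0.49) and Hoxb8 (0.96) then fell short, which left 7 of 9, beside 8.15% of all rows. With 1 added, Hoxb1 passed for GFP- HSCs, which gave 8 of 9, beside 14.3% of all rows, and the count for GFP+ HSCs was 9 of 9, beside 15.4%. The median log2 ratio over the 9 members was 2.14 for GFP- HSCs and 2.42 for GFP+ HSCs, beside -0.01 and 0.01 for all genes past the filter. The comparisons share the MPP library, so they are not independent of each other.

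Only 5 members passed the filter on mean level, Hoxb2 to Hoxb6. Hoxb2, Hoxb5 and Hoxb6 were below 50 in MPPs and passed through their HSC levels, so their counts past 2-fold, 4 of 5 for GFP- HSCs and 5 of 5 for GFP+ HSCs, are given as a description. Hoxb3 and Hoxb4 were above 50 in every library. For GFP- HSCs against MPPs, Hoxb3 ranked 872 and Hoxb4 1495 from the highest ratio among the 11951 genes, and for GFP+ HSCs against MPPs they ranked 969 and 1247.

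Within the stem cell gate, the GFP+ fraction was set against the GFP- fraction, the division that the Map17 reporter makes. All 9 members were higher in GFP+ HSCs, beside 51.7% of the 11951 genes past the filter and 35.8% of all rows. Most of the steps were small: 0 of 9 passed 2-fold, which 0.41% of all genes did upwards, 0.87% downwards and 1.33% upwards of those with a mean level of 50 to 500 (1.52% of all rows). With 1 added in place of 5, 1 of 9 passed 2-fold, Hoxb1, beside 5.02% of all rows, and with 20 added 0 of 9 did, beside 0.162%. With 5 added, 2 of 9 passed 1.5-fold upwards, which 2.50% of all genes, 7.63% of those at 50 to 500 and 4.67% of all rows did. These 2 were Hoxb5 (346 and 618 in GFP- and GFP+ HSCs) and Hoxb1 (3 and 8, too low to read). Hoxb5 was 1.79-fold higher and ranked 94 of 11951. Its step was larger than that of Pdzk1ip1, the gene that encodes Map17, which stood at 3673 and 5659, a 1.54-fold difference. The levels of these genes differ, however. Hoxb5, with a mean level of 327, lies at 50 to 500, where steps past 1.5-fold were more common than over all genes.

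The other members past the filter lay inside the middle 90% of all genes, whose log2 ratios ran from -0.46 to 0.45. Hoxb4 was 1.26-fold higher in GFP+ HSCs, Hoxb2 1.14-fold, Hoxb6 1.09-fold and Hoxb3 1.06-fold. Hoxb5 alone made up 58.3% of the gain in the summed level per kb from GFP- to GFP+ HSCs. Without Hoxb5 the summed count was 1296 in GFP- and 1480 in GFP+ HSCs, a 1.14-fold difference. The median log2 ratio of the 9 members was 0.20, beside 0.01 for all genes past the filter.

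**Figure D4:**
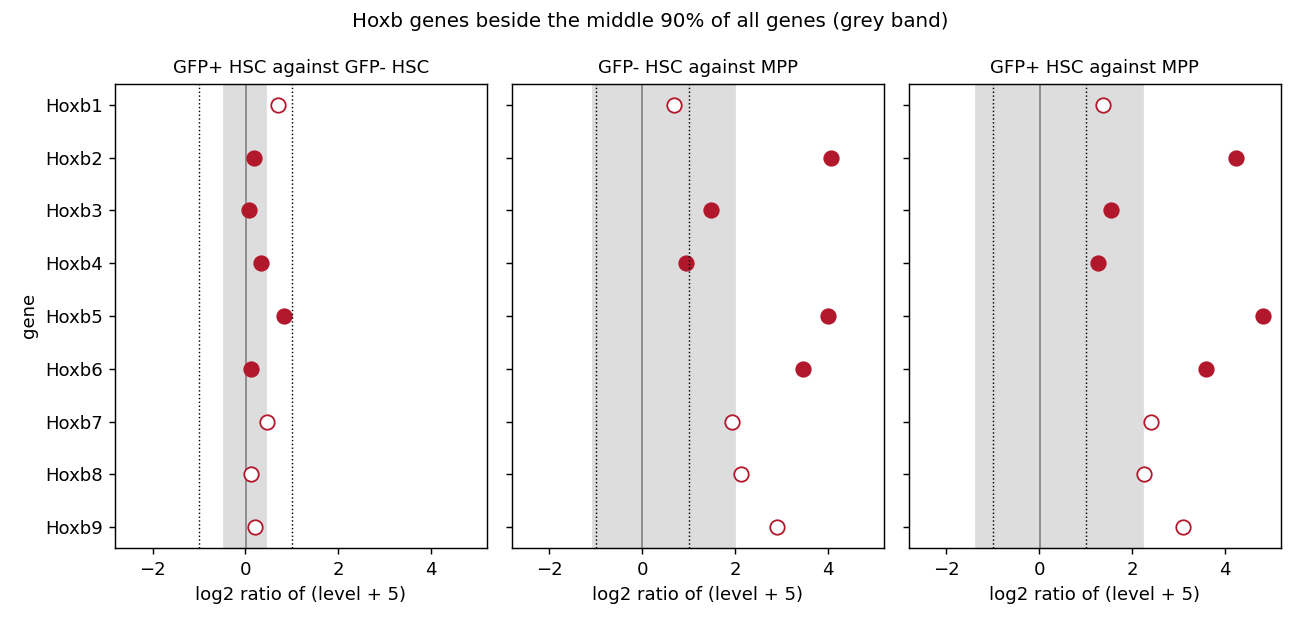
Log2 ratio of (level + 5) of each Hoxb gene in the 3 comparisons; filled points have a mean level of 50 or more and open points do not, the grey band holds the middle 90% of the 11951 genes past the filter, the grey line is their median, and dotted lines mark 2-fold. Hoxb5 at 0.83 is the filled point outside the band for GFP+ against GFP- HSCs, and Hoxb2, Hoxb5 and Hoxb6 lie far outside it against MPPs while Hoxb3 and Hoxb4 lie within it.

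Paralogues in the other clusters set these levels in context. The Hoxa genes summed to 3976 (MPPs), 5438 (GFP- HSCs) and 6251 (GFP+ HSCs), so the HSC libraries were 1.37-fold and 1.57-fold above MPPs. The Hoxb sum came to 5.94% (MPPs), 30.2% (GFP- HSCs) and 33.6% (GFP+ HSCs) of the Hoxa sum. Against MPPs, 3 of 11 Hoxa genes were higher by 2-fold or more in each HSC library, beside 9.93% (GFP- HSCs) and 11.3% (GFP+ HSCs) of all rows. These 3 were Hoxa2 (30, 74 and 68), Hoxa5 and Hoxa10. Hoxa6 fell just short in GFP- HSCs, at a log2 ratio of 0.98. Of the 11, 2 were listed at 0 in every library, as was Hoxb13, which is not counted among the Hoxb members. Hoxa10 had the largest Hoxa counts in both HSC libraries, at 767 (MPPs), 1734 (GFP- HSCs) and 1971 (GFP+ HSCs). In paralogue group 9, Hoxa9 is a driver of progenitor growth and of leukaemia. It had counts of 1716 (MPPs), 1530 (GFP- HSCs) and 1627 (GFP+ HSCs), beside 3, 55 and 64 for Hoxb9.

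In group 5, Hoxa5 and Hoxb5 were both lowest in MPPs and highest in GFP+ HSCs. Hoxa5 had counts of 340 (MPPs), 842 (GFP- HSCs) and 1152 (GFP+ HSCs), a step of 2.48-fold from MPPs to GFP- HSCs and of 1.37-fold from there to GFP+ HSCs. Hoxa4 of group 4, at 38, 39 and 64, and Hoxa3 of group 3, at 292, 475 and 494, had the same order. The Hoxc and Hoxd clusters were near the bottom of the scale: no gene of either passed the filter, and the highest level was 45, of Hoxc6 in GFP+ HSCs. Their sums, at 3, 31 and 56 (Hoxc) and at 0, 3 and 9 (Hoxd), had the same order as the Hoxb sum.

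**Figure D5:**
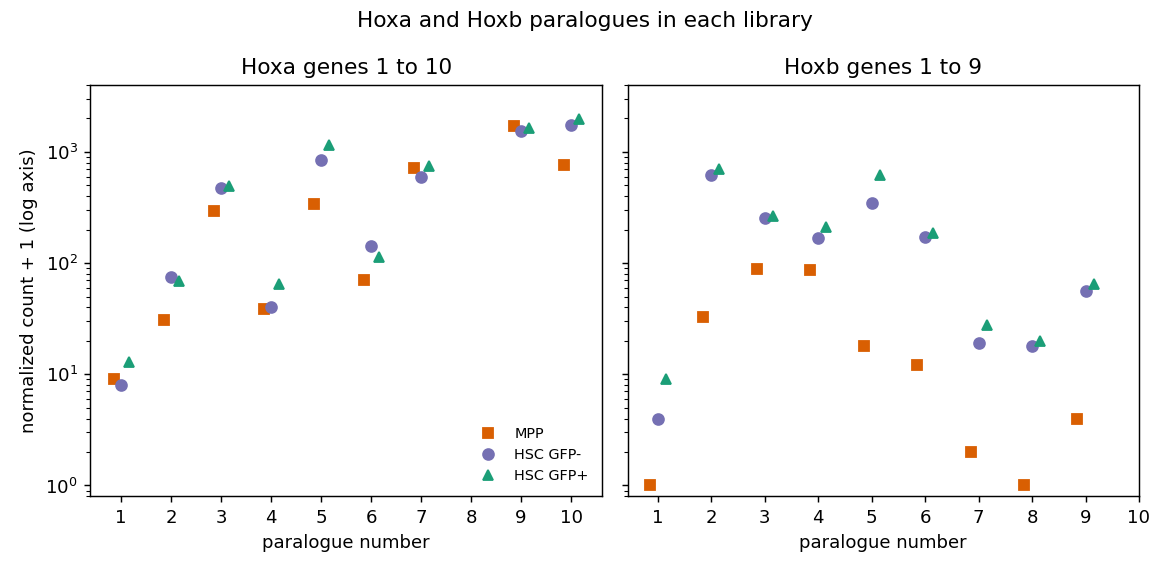
Normalized count plus 1 (log axis) of the Hoxa genes 1 to 10 and the Hoxb genes 1 to 9 by paralogue number, 1 point per library. The MPP points fall well below the HSC points for most Hoxb genes. They also lie below both HSC points for Hoxa2, Hoxa3, Hoxa5 (340, 842 and 1152), Hoxa6 (69, 141 and 112) and Hoxa10. For Hoxa7 (716, 596 and 751) and Hoxa9 (1716, 1530 and 1627) the 3 libraries lie close together.

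The genes that flank the cluster were mostly within 2-fold across the gates. Of 14 flanking genes listed, 12 had a row and 7 passed the filter. Of these 7, 1 was higher by 2-fold or more in GFP- HSCs against MPPs and 0 lower, beside 11.6% of all genes upwards and 5.53% downwards. Their median log2 ratio was -0.46. For GFP+ HSCs against MPPs, 1 was higher and 1 lower, beside 13.7% of all genes upwards and 8.61% downwards, at a median of -0.47. The higher one was Copz2, which encodes a subunit of the vesicle coat, at 162 (MPPs), 360 (GFP- HSCs) and 408 (GFP+ HSCs). Atp5g1, a subunit of the mitochondrial ATP synthase, stood at 153, 95 and 73. Those with the largest counts, Nfe2l1, Ube2z and Cbx1, stood at 5009, 4926 and 5673, at 2837, 2919 and 3090, and at 1510, 1052 and 788. The genes beyond both ends of the cluster were low: Skap1, beyond Hoxb1, stood at 18, 43 and 52, and Ttll6, beyond Hoxb13, was listed at 0 throughout. Skap1 did not pass the filter, but was past 2-fold above MPPs, at log2 ratios of 1.06 (GFP- HSCs) and 1.31 (GFP+ HSCs).

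HOX proteins bind DNA together with the TALE homeodomain proteins of the Meis, Pbx and Pknox families. Of the 8 such genes analysed here, 7 passed the filter, and 4 of the 7 were higher by 2-fold or more in GFP- HSCs against MPPs and 0 lower, with a median log2 ratio of 1.32, beside the 11.6% of all genes upwards. Meis2 and Meis3, 2 of these 4, were below 50 in MPPs and passed the filter through their HSC levels, so the count is only a description. The same count held for GFP+ HSCs, at a median of 1.41 and beside 13.7% of all genes. The 2 HSC fractions had 0 of 7 apart, beside 0.41% of all genes upwards and 0.87% downwards. Meis1 had counts of 8278 (MPPs), 20666 (GFP- HSCs) and 22023 (GFP+ HSCs). Pbx3 stood at 177, 731 and 955, and Meis3 at 30, 222 and 346. Meis2, listed at 0 in the MPP library, stood at 80 and 117 in the HSC libraries. Pknox1 went the other way, at 2865, 1816 and 1781.

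Known regulators of Hox genes were mostly within 2-fold across the gates. Of 33 listed, 29 passed the filter. Against MPPs, 2 of the 29 were higher and 1 lower by 2-fold in GFP- HSCs, beside 11.6% of all genes upwards and 5.53% downwards. In GFP+ HSCs, 4 were higher and 3 lower, beside 13.7% of all genes upwards and 8.61% downwards. The counts are a description and not a result about the regulators as a set. Between the HSC fractions, 0 of 29 were 2-fold apart, beside 0.41% of all genes upwards and 0.87% downwards. The retinoic acid receptor gene Rarb had counts of 2 (MPPs), 624 (GFP- HSCs) and 842 (GFP+ HSCs); it passed the filter through its HSC levels. Retinoic acid is a classic inducer of the anterior Hox genes. Mllt3, which encodes a partner of the MLL and DOT1L machinery that keeps Hox genes active, stood at 578, 5559 and 7984. The 29 regulators had a median log2 ratio of -0.20 for GFP- HSCs and -0.31 for GFP+ HSCs.

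Kmt2a, the MLL methyltransferase gene, which the table lists as Mll1, had counts of 3656 (MPPs), 7108 (GFP- HSCs) and 7368 (GFP+ HSCs). Rarg, another retinoic acid receptor gene, stood at 285, 570 and 781. On the lower side, Gmnn, which encodes the replication inhibitor geminin, stood at 2311, 1109 and 715. Ezh2, the methyltransferase of the Polycomb complex that silences Hox genes, stood at 4947, 2527 and 1788, and Dpy30, a subunit of MLL complexes, at 2515, 1441 and 1188. Psip1, at 7236, 6258 and 6273, and Suz12, at 5956, 4439 and 4460, had, with Kmt2a, the largest mean counts of the regulators and were less than 2-fold apart. The Cdx genes, caudal-type activators of Hox genes, were listed at 0 in all libraries for Cdx2 and Cdx4, and at 0, 2 and 0 for Cdx1.

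Promoter sequences, 250 bases before to 50 after the annotated start, were at hand from RefSeq (GRCm38.p6) for 3 of the 9 members, Hoxb1, Hoxb4 and Hoxb8. These 3 are shown because no other member had one at hand. A link between their letters and the levels was not tested. Capitals mark TGATNNAT, the form of the site that Pbx and Hox proteins share, in Hoxb1 (chr11:96365508-96365807, plus strand), AGGTCA, the half-site of retinoic acid receptors, on the other strand in Hoxb4 (chr11:96318017-96318316, plus strand), and TTTATNG, a form of the Cdx site, in Hoxb8 (chr11:96281655-96281954, plus strand).
Hoxb1: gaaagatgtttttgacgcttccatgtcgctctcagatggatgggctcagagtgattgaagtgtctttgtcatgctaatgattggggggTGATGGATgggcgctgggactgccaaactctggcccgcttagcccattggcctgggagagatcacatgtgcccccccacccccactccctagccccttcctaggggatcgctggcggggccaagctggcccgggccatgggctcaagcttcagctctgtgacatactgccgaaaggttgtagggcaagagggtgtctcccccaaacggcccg
Hoxb4: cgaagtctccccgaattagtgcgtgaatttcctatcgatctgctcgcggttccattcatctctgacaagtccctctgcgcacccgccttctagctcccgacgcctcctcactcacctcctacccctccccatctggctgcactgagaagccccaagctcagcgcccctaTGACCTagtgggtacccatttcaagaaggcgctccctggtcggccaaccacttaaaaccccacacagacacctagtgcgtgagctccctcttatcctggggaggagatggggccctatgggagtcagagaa
Hoxb8: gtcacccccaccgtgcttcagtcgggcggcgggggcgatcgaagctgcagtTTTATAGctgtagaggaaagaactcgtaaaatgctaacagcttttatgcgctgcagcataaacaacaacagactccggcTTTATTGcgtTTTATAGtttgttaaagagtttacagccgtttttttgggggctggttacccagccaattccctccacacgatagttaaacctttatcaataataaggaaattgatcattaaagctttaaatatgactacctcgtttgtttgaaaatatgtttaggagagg
Both strands were searched for 5 motifs, and no 2 matches of different motifs overlapped in these windows. TGATNNAT matched once each in Hoxb1 and Hoxb8 and was in 8.86% of 32817 RefSeq promoters of the same length. AGGTCA matched once in Hoxb4 and was in 16.3% of all promoters. TTTATNG matched 3 times in Hoxb8 and was in 10.9% of promoters, and CCAAT, the NF-Y site, matched 2 times in Hoxb1 and once in Hoxb8 and was in 37.4%. CACGTG, the site of Usf factors, was in 7.15% of promoters and in 0 of these 3 windows. These matches describe letters and not bound sites.

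Over the 3 libraries, the 5 genes (mean level 100 or more, predicted genes left out) whose pair of log2 ratios (GFP- HSC against MPP, GFP+ against GFP- HSC) lay nearest to that of Hoxb5 were Ptges, Tc2n, Gbp9, Kazald1 and Mum1l1, out of 10554. Ptges, a prostaglandin E synthase gene, lay at a distance of 0.02 and had counts of 8 (MPPs), 204 (GFP- HSCs) and 370 (GFP+ HSCs). Tc2n stood at 3, 129 and 230, and Gbp9, an interferon-inducible GTPase gene, at 48, 770 and 1331. Among the genes nearest to the sum of the 9 members were Otub2, Mtmr7, Plag1 and Klf12, at distances of 0.02 to 0.04. Otub2 stood at 188, 1295 and 1642. With 3 libraries, such likeness rests on 2 ratios only.

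Other cells that a sort might carry were followed by marker lists. Of the 5 genes behind the gates, those of CD150 and CD48 went the way of the sort, with Slamf1 at 17 (MPPs), 2144 (GFP- HSCs) and 2219 (GFP+ HSCs), and Cd48 at 7744, 168 and 64. Kit stood at 23579, 42967 and 47772, and Ly6a, which encodes Sca-1, at 1767, 2184 and 2702. Pdzk1ip1 stood at 290, 3673 and 5659, a 12.7-fold difference between MPPs and GFP- HSCs, both sorted as Map17-GFP-, and a 1.54-fold one between the GFP- and GFP+ HSCs. Stromal and endothelial cells also use Hox genes: all 10 of their markers had a row, with summed levels of 3210 (MPPs), 2543 (GFP- HSCs) and 3144 (GFP+ HSCs). Pdgfrb, at 2472, 589 and 503, had the largest count, and without it the other 9 summed to 738, 1954 and 2641, lowest in MPPs and highest in GFP+ HSCs as the Hoxb sum was. Kdr (18, 444 and 713), Col1a2 (28, 457 and 679) and Emcn (496, 727 and 849) had that order too. So did Col1a1, at 17, 22 and 294, which was 13.4-fold higher in GFP+ than in GFP- HSCs, and Cxcl12 stood at 66, 187 and 29. Cdh5, which defines endothelium, stood at 10, 10 and 3, Plvap at 103, 89 and 65, Lepr, of marrow stroma, at 0, 10 and 0, and Pdgfra at 0, 8 and 9. Their part in the Hoxb levels was not tested.

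All 7 neutrophil markers had a row and summed to 795, 752 and 1680, with none at 0. Of the 7, 3 were higher by 2-fold or more in GFP+ than in GFP- HSCs. Of all genes past the filter 0.41% were, and 1.33% of those with a mean level of 50 to 500. Hoxb5 was also higher in GFP+ HSCs, and the part of neutrophil markers in that difference was not tested. Megakaryocyte markers summed to 1797, 9056 and 5198 over 4 of 4 genes with none at 0. Itga2b made up most of this sum, at 1263, 7032 and 4095, and the other 3 summed to 534, 2024 and 1103. Ppbp went the other way, at 227, 70 and 83, so the sum, but not every marker, was higher in both HSC libraries as the Hoxb genes were, and the part of these markers was not tested. Erythroid markers summed to 290, 484 and 331 over 4 of 5 with Hba-a1 at 0 throughout, B cell markers to 1291, 765 and 896 over 4 of 5 with Ms4a1 at 0 in both HSC libraries, and T cell markers to 309, 93 and 100 over 5 of 5 with Cd3e and Cd3g at 0 in both HSC libraries.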

How the data were processed

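RNA from 3 sorted populations was measured in 3 libraries. Per the labels' protocols, cDNA came from a SMART-seq v4 kit, which copies full-length transcripts by PCR without molecular identifiers or strand. The submitters' processing notes name STAR, DESeq2 and mm10; for versions, annotation and counting tool, the sources used here give nothing. The deposited table holds normalized counts rounded to whole numbers by the authors, which were treated as a score, since the reads and scaling factors behind them are unknown. Depth is therefore unknown and no counting interval is given; after the authors' scaling the columns summed to 26689660 (MPPs), 25375047 (GFP- HSCs) and 25311805 (GFP+ HSCs). Rows with a date in place of a symbol, 27 in number, were left out, which left 23393. Columns were matched to populations by name, with neg and pos read as GFP- and GFP+ HSCs.

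Ratios are log2 of (level + 5), and folds of single genes are ratios of the levels. The 11951 genes whose mean level over the libraries reached 50 gave the background, and calls were made at 2-fold and 1.5-fold. No test was made, as each population had 1 library. The background of genes with a mean level of 50 to 500 was chosen after the data were seen. The ratio calculation was tested on simulated data. The members and lists were chosen with earlier results of these data known. Named genes were the 9 members, other Hox rows, and the genes of the lists that were 2-fold apart or among the 3 most abundant. The 5 genes nearest in ratio to Hoxb5 and to the sum were to be named too. Hoxa2, Hoxa3, Hoxa4, Hoxa5, Hoxa6, Hoxa7, Hoxa9, Hoxa10 and the marker genes named were chosen after their values were seen. So were Skap1, Ttll6 and the Cdx genes. Some genes that these rules would name are not reported here. Lengths, overlaps and transcript sequences came from GENCODE M21 (GRCm38) and promoters from RefSeq. Shared alignments were found with blastn 2.17.0+, without gaps, on the sense strand. They were kept only at full identity over their whole length. Other settings tried were a pseudocount of 1 or 20, a minimum mean of 10 or 200, and equal totals or upper quartiles; no filter (also with each pseudocount and scaling), leaving out Hoxb5 and other transcript lengths were added after the data were seen. Calculations ran in Python 3.11.15 (pandas 2.3.3, numpy 2.4.6, biopython 1.88, matplotlib 3.10.9).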

Additional observations from a re-analysis of the deposited data

How the results depend on the processing

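Every member kept its direction in the 3 comparisons under the alternatives run for single genes (2 pseudocounts and 2 rescalings). Of the single-gene log2 ratios under these, 36 of 36 stayed within 1.5-fold between the HSC fractions, and against MPPs 27 (GFP- HSCs) and 26 (GFP+ HSCs) did; the others moved with the pseudocount. Of all 9 members with no filter, a pseudocount of 20 left 5 (GFP- HSCs) and 7 (GFP+ HSCs) at least 2-fold above MPPs, in place of 7 and 9, with Hoxb7 and Hoxb8, and Hoxb1 and Hoxb8, lost. A pseudocount of 1 gave 8 and 9, and 1 in place of 0 between the HSC fractions, Hoxb1 being gained. Hoxb5 kept a log2 ratio of 0.80 to 0.83 between the HSC fractions, and Hoxb4 came just over 2-fold for GFP- HSCs against MPPs when the libraries were rescaled to the same total, which gave 8 of 9.

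Over the members past the filter, the median log2 ratio was 3.46 for GFP- HSCs and 3.58 for GFP+ HSCs against MPPs. With a pseudocount of 20 it was 2.62 and 2.74, with a minimum mean of 10 it was 2.52 and 2.76, with no filter 2.14 and 2.42, and without Hoxb5 2.47 and 2.57. With a minimum mean of 200, 3 members were left for GFP+ HSCs against MPPs, 3 of them at least 2-fold higher, with a median of 4.25. The number at least 2-fold higher was 7 and 8 with a minimum mean of 10, and 7 and 9 with no filter, in place of 4 and 5, because more members were counted. With merged exon lengths, 5 of 9 members kept their place in the order by level per kb in GFP+ HSCs, where Hoxb5 then led Hoxb2. No paired analysis was possible because each population had 1 library. Depth, and with it the error of the small counts of Hoxb1, Hoxb7 and Hoxb8, is unknown.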
